A study of Mus musculus with 7 samples.

Results

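Transcripts of the bone morphogenetic protein (BMP) pathway were examined in the lungs of mice that lack Gata5, a transcription factor with GATA zinc fingers. The genes taken were the ligands Bmp2, Bmp4, Bmp5 and Bmp6, the receptors Bmpr1a and Bmpr2, the inhibitory Smad gene Smad6 and the target genes Id1, Id2 and Id3. Every probe set that the platform annotation assigns to 1 of these 10 genes alone was used, which gave 21 of the 45037 probe sets that are not controls, and 10 of 18193 genes. The series compared the left lung of Gata5 KO mice (KO, 3 animals) with that of wild type mice (WT, 4 animals), all 8 weeks old, with 1 Affymetrix mouse expression array per animal. The labels name no treatment. The deleted part of Gata5, the strain, the sex and the litters of the mice are unstated in the labels, and the RNA came from whole lung tissue with all of its cell types. Values are log2 levels as deposited, so a difference of 1 is a 2-fold change.

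BMPs are secreted dimers that bring type I receptors, such as the product of Bmpr1a, together with type II receptors, such as that of Bmpr2. The active complex phosphorylates Smad1, Smad5 and Smad9, which join Smad4 and enter the nucleus. Id genes are early targets there, and their products bind E proteins and other basic helix-loop-helix factors and keep them off DNA. Smad6 is also induced by BMP and blocks the receptors in a feedback loop. In lung, Bmp4 acts in branching and alveolar epithelium, and loss-of-function alleles of human BMPR2 cause heritable pulmonary arterial hypertension.

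The promoter windows of Id2, Id3 and Smad6 are shown because these genes, with Id1, are the readouts of Smad activity measured here. Of the 10 genes, 8 had a window in the RefSeq table (GRCm38.p6); Bmp2 and Id1 had none. Each line gives the 250 bases before the annotated start, 5′ to 3′ on the strand of the gene. Capitals mark matches, on either strand, to the GC-rich Smad motifs GGCGCC and GGAGCC, to the Smad motif CAGAC and to the GATA motif GATAA. The windows lie at chr12:25096093-25096342 (minus strand) for Id2, chr4:136143572-136143821 (plus strand) for Id3 and chr9:64022060-64022309 (minus strand) for Smad6.
Id2: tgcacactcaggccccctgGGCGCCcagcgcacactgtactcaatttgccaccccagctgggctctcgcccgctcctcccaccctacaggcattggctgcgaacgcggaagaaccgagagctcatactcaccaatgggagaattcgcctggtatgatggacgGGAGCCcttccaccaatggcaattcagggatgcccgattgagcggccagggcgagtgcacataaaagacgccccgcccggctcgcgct
Id3: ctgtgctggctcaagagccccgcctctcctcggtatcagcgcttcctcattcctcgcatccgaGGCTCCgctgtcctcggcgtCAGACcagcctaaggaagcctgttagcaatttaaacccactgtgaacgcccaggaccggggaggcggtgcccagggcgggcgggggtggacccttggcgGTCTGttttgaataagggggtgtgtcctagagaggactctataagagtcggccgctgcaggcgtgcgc
Smad6: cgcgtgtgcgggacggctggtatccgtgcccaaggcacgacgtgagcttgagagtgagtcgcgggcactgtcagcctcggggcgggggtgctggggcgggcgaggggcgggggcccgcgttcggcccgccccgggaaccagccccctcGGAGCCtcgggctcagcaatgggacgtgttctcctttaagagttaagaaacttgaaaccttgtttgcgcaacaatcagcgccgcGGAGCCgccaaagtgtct
The Id2 window holds 1 match to GGCGCC and 1 to GGAGCC. The Id3 window holds 1 match to GGAGCC and 2 to CAGAC, and the Smad6 window 2 to GGAGCC. None of these 3 windows holds GATAA. Over all 32851 windows of the table, 9.59% hold GGCGCC, 26.0% GGAGCC, 42.2% CAGAC and 22.6% GATAA. A match alone thus does not show a binding site, and binding was not tested.

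The arrays were checked first. Sftpc and Ager, markers of alveolar type 2 and type 1 cells, had mean log2 levels of 14.10 and 14.13. WT replicate 4 stood apart in sex-linked transcripts, with a log2 level of 12.72 for Xist (6.31 to 6.48 elsewhere) and of 3.71 for Eif2s3y, a gene of the Y chromosome (9.30 to 9.68 elsewhere). By these transcripts WT replicate 4 reads as female and all other arrays, every KO array among them, as male. Groups also separated at the control probe sets: the difference between the 3′ and 5′ beta-actin probe sets averaged 4.96 ± 0.37 over KO arrays (SD, n = 3) against 4.10 ± 0.22 over WT arrays (SD, n = 4) (exact two-sided permutation p = 0.0286, the smallest possible with 35 ways to split the arrays). The 3′ minus middle differences of beta-actin and Gapdh did not overlap either, at 2.84 to 3.34 against 2.23 to 2.56 and at 3.85 to 4.31 against 3.33 to 3.68. Such differences are used as a measure of RNA quality, where a larger value means less signal towards the 5′ end. Beta-actin 3′ minus 5′ was 4.74 to 5.39 on KO arrays and 3.88 to 4.31 on WT arrays. RNA quality and genotype thus varied together, and their parts in the calls cannot be told apart. Gata5 itself was dim: the means of 1450126_at were 4.95 ± 0.22 (KO) and 5.54 ± 0.22 (WT) (limma adjusted p = 0.0336), and its call was lost without any one of 5 arrays (adjusted p up to 0.0791). The other Gata5 probe set, 1450125_at, differed by -0.26 and did not pass (limma adjusted p = 0.0993). It passed as lower under quantile normalization (-0.34, limma adjusted p = 0.0420) and cyclic loess normalization (-0.34, 0.0421), and its sign turned in 2 of 11 alternatives. Both Gata5 probe sets lay under the 40th percentile of probe set means. Across all probe sets 4456 (9.89%) passed at an adjusted p under 0.05, 1588 higher and 2868 lower in KO, so 35.6% of the calls were higher. A further quantile normalization made that share 46.3% and median centring 24.8%, while the median log2 difference of all probe sets, 0.043 as deposited, was 0.015 and 0.014.

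Most of the 10 genes did not pass in KO lungs, and the 3 probe sets that passed were lower. Id1, the helix-loop-helix inhibitor most used as a readout of BMP signalling, fell 1.51-fold. Single probe sets of the receptor genes Bmpr1a and Bmpr2 fell 1.45-fold and 1.30-fold, while the brightest probe sets of both receptors did not pass. No ligand passed, nor did Id2, Id3 or Smad6. In all, 3 of 21 probe sets passed, 3 lower and 0 higher, against 9.89% of all probe sets (6.37% lower and 3.53% higher). At unadjusted p under 0.05 the count was 8 of 21, against 29.4%. Taking each gene by its brightest probe set, 1 of 10 passed, lower, against 10.5% of 18193 genes (6.52% lower). These shares lie near the background. KO and WT arrays did not overlap at 7 of the 21 probe sets, 6 of them lower in KO, against 23.4% of all probe sets (11.7% lower). The median log2 difference of the 21 was -0.071 against 0.043 over all probe sets, and 14 lay below 0. A filter on low values, set at the 40th percentile of probe set means (5.47 on the log2 scale), was passed by 19 of the 21. Without WT replicate 4, or without KO replicate 3, 0 of the 21 passed (limma, with 7 at unadjusted p under 0.05 in each case), while 1974 (4.38%) and 2300 (5.11%) of all probe sets did. Without WT replicate 1 or WT replicate 3, 1 of the 21 passed, against 4.83% and 5.01% of all probe sets. Without KO replicate 1, 2 of the 21 passed, against 7.81% of all probe sets.

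**Figure D1:**
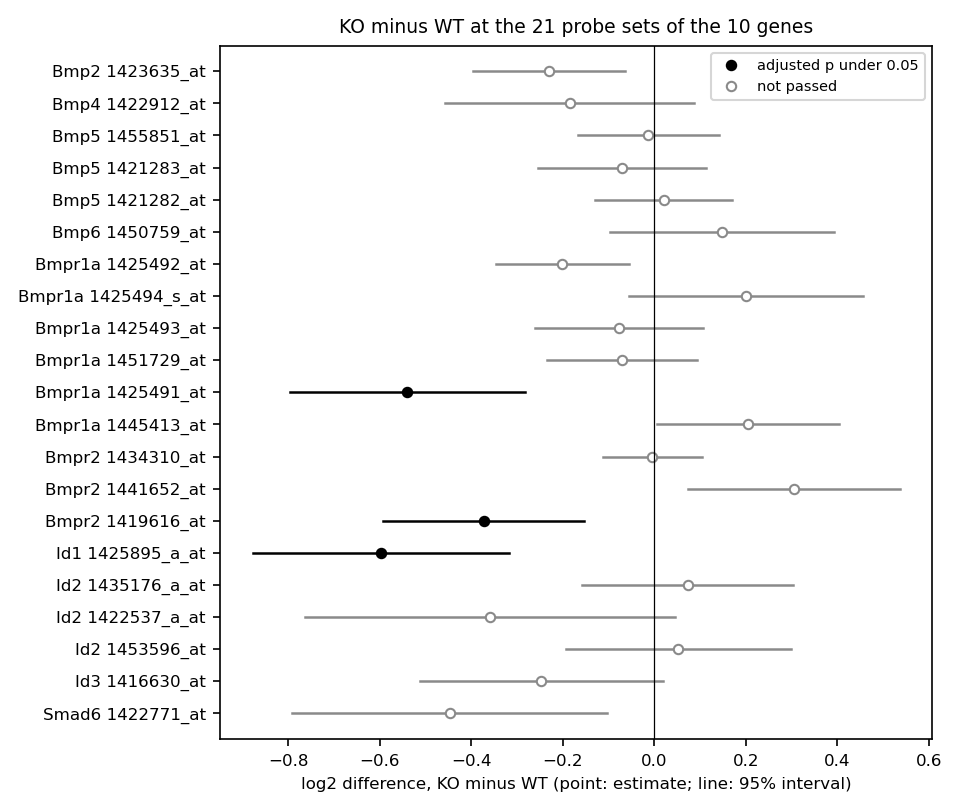
Log2 difference between KO and WT at each of the 21 probe sets, with 95% intervals from limma; filled black points passed at an adjusted p under 0.05 and open grey points did not. Id1 and 1 probe set each of Bmpr1a and Bmpr2 lie below 0 and passed, and the other probe sets of the receptors spread to either side of 0.

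Id1 had a single probe set, 1425895_a_at. Its log2 level was 7.51, 7.54 and 7.30 on the KO arrays and 8.21, 7.77, 7.96 and 8.25 on the WT arrays. The groups did not overlap, with KO replicate 3 the lowest of the KO arrays and WT replicate 4 the highest of the WT arrays. The means were 7.45 ± 0.13 for KO (SD, n = 3) against 8.05 ± 0.23 for WT (SD, n = 4), a log2 difference of -0.60 with a 95% interval of -0.88 to -0.32 (limma adjusted p = 0.0226). The direction held in each of the 14 alternative settings and with each array left out, with differences from -0.81 to -0.31. Of these settings, the filter on low values, the reduction of probe sets to genes and the change of variance model could not alter the difference. Leaving out KO replicate 3 ended the call (adjusted p = 0.0778), as did leaving out WT replicate 1 (0.0620) or WT replicate 4 (0.0585), or taking the Xist level as covariate (0.0558). It was also lost with the control differences as covariates: the log2 difference was -0.81 (adjusted p = 0.199) with beta-actin 3′ minus 5′, -0.69 (0.220) with Gapdh 3′ minus middle, -0.69 (0.206) with the hybridisation spikes and -0.31 (0.646) with beta-actin 3′ minus middle. In those fits 0 to 13 probe sets of the whole array passed. WT replicate 4 alone had a high Xist level, so the Xist covariate and the loss of that array were nearly the same check. In whole lung RNA, fewer Id1-expressing cells and less Id1 RNA per cell cannot be told apart.

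**Figure D2:**
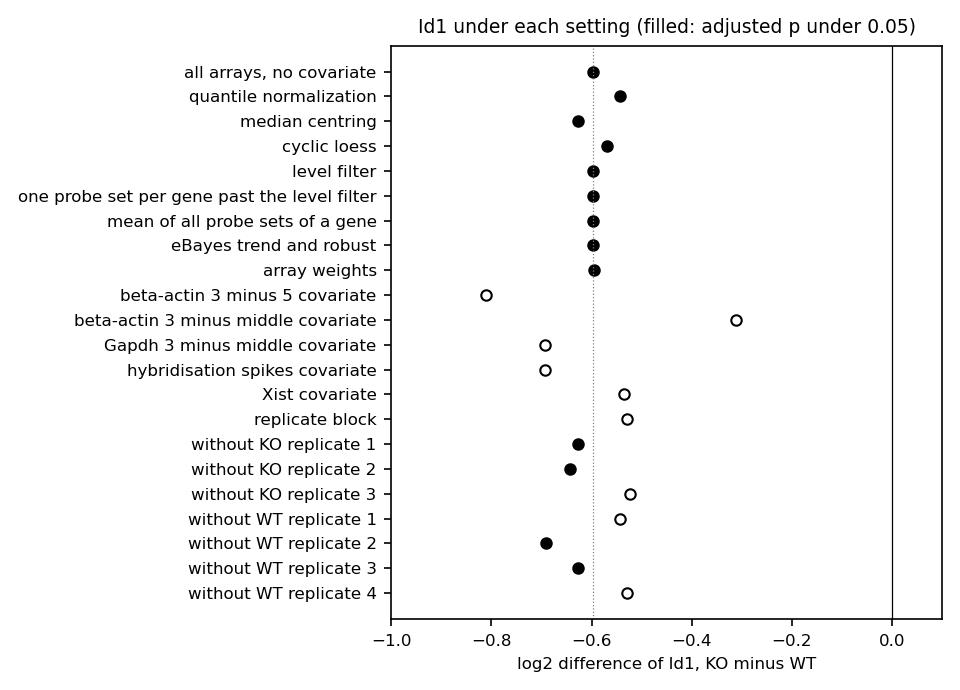
Log2 difference of Id1 between KO and WT under each setting; filled points passed at an adjusted p under 0.05 and open points did not, and the dotted line marks the value with all arrays and no covariate. All points lie below 0, between -0.81 and -0.31, and the call is lost with each control covariate, the Xist covariate and the replicate block, and without KO replicate 3, WT replicate 1 or WT replicate 4.

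The other Id genes, whose products have the same helix-loop-helix fold, did not pass. Id3 (1416630_at) was at 10.14, 9.98 and 9.74 in KO and 10.17, 10.02, 10.19 and 10.42 in WT. The groups overlapped, and the log2 difference was -0.25 with an interval of -0.51 to 0.018 (limma adjusted p = 0.195). Id2 at its brightest probe set, 1435176_a_at, was at 11.83, 11.71 and 11.45 in KO and 11.52, 11.48, 11.74 and 11.62 in WT. Here KO replicate 1 was the highest array and KO replicate 3 the lowest, and the log2 difference was 0.073 (interval -0.16 to 0.30), a sign that 3 of 14 alternatives turned. A second Id2 probe set, 1422537_a_at, read 7.86, 7.86 and 7.10 in KO and 7.88, 7.90, 7.96 and 8.12 in WT. Its groups did not overlap, by a margin of 0.02, but KO replicate 3 carried most of the difference of -0.36 (adjusted p = 0.213), which was -0.11 without that array. The third, 1453596_at, was under the 40th percentile and differed by 0.052.

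The levels of the Id genes were also set side by side within each array, at the brightest probe set of each. These differences were chosen after the values were seen and are given as a description, with no test. Id1 minus Id2 was -4.32 to -4.15 on the KO arrays and -3.78 to -3.31 on the WT arrays, a mean shift of -0.67 on the log2 scale. Id1 minus Id3 was -2.63 to -2.44 on the KO arrays and -2.25 to -1.96 on the WT arrays, a shift of -0.35. Id2 minus Id3 was 1.71 ± 0.02 in KO and 1.39 ± 0.15 in WT. Both differences that contain Id1 were lower on each KO array than on each WT array.

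Smad6, the inhibitory Smad that occupies type I receptors, had 1 probe set, 1422771_at, at 10.16, 10.02 and 9.97 in KO and 10.61, 10.06, 10.76 and 10.56 in WT. The KO arrays lay close together, and WT replicate 2 lay among them while the other WT arrays were higher. The log2 difference was -0.45 with an interval of -0.79 to -0.10 and did not pass (limma adjusted p = 0.0963). Without WT replicate 2 it was -0.59 and passed (adjusted p = 0.0147). The difference stayed below 0 in all 14 alternatives, from -0.72 to -0.27, though the same settings as for Id1 could not alter it.

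**Figure D3:**
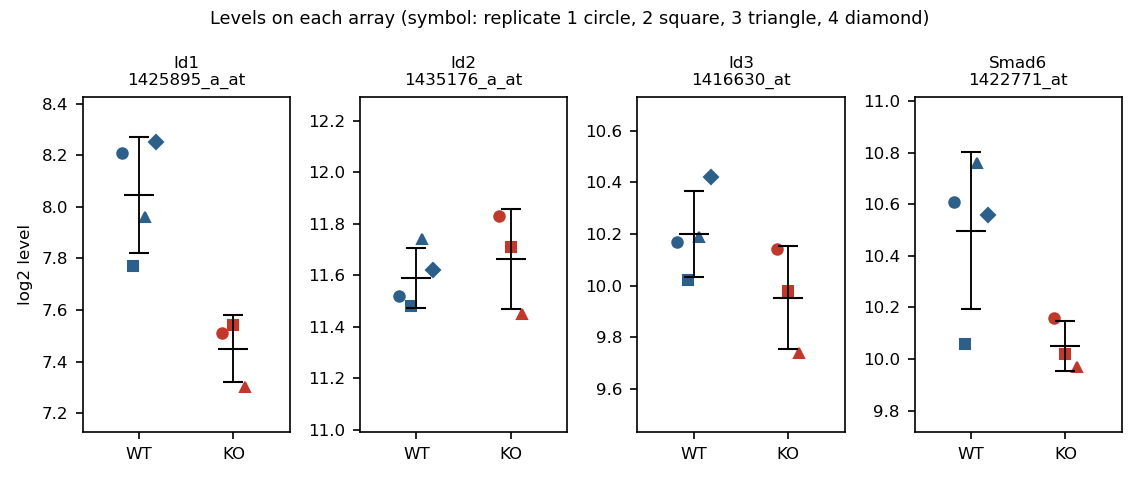
Log2 level of Id1, Id2, Id3 and Smad6 on each array at the brightest probe set of each gene, with group mean and SD (bars), WT in blue and KO in red; each panel spans the same range of log2 units. The KO arrays of Id1 (7.30 to 7.54) lie below the WT arrays (7.77 to 8.25), and in the other 3 genes the groups overlap.

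No ligand probe set passed, and their log2 differences ran from -0.23 to 0.15. Bmp2, a ligand that signals through Bmpr1a, was at 7.64, 7.80 and 7.80 in KO and 8.12, 7.93, 7.91 and 7.95 in WT. The groups did not overlap, yet the difference of -0.23 (interval -0.40 to -0.065) did not pass (limma adjusted p = 0.0812). Bmp4, its closest relative and a mesenchymal and epithelial signal of the developing lung, was at 10.50, 10.38 and 10.44 in KO and 10.42, 10.43, 10.77 and 10.88 in WT. WT replicates 3 and 4 were the high arrays there, and the difference was -0.19 (interval -0.46 to 0.087, adjusted p = 0.322). Bmp6, of the subgroup that also holds Bmp5 and Bmp7, was at 10.60, 10.86 and 10.37 in KO and 10.45, 10.37, 10.51 and 10.52 in WT, with a difference of 0.15 (interval -0.097 to 0.39, adjusted p = 0.375). KO replicate 2 was the high array, and without it the difference was 0.022. The brightest of 3 Bmp5 probe sets, 1455851_at, was at 10.05, 10.11 and 10.10 in KO and 10.07, 9.98, 10.23 and 10.12 in WT, a difference of -0.013 (interval -0.17 to 0.14). The others, 1421283_at and 1421282_at, differed by -0.071 and 0.021, and the signs of 1455851_at and 1421282_at turned with the normalization. The widest of the 3 Bmp5 intervals, that of 1421283_at, ran from -0.25 to 0.11.

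Bmpr1a, the type I receptor, was covered by 6 probe sets that did not move together. Its brightest, 1425492_at, was at 9.89, 10.04 and 9.88 in KO and 10.08, 10.14, 10.22 and 10.11 in WT. All KO arrays were lower, but the difference of -0.20 (interval -0.35 to -0.056) did not pass (limma adjusted p = 0.0824). Probe set 1425491_at was at 5.55, 5.75 and 5.74 in KO and 6.03, 6.51, 6.15 and 6.19 in WT. It fell by 0.54 on the log2 scale (interval -0.80 to -0.28, adjusted p = 0.0236), without overlap between groups. Without KO replicate 1 or 3 that call was lost, and likewise without replicate 3 or 4 of WT (adjusted p up to 0.0668) and with every control covariate (0.257 to 0.393), while the difference stayed between -0.62 and -0.41. The other 4 did not pass: 1425494_s_at differed by 0.20, 1425493_at by -0.078, 1451729_at by -0.071 and 1445413_at by 0.20. The last was under the 40th percentile, and its KO arrays (4.71 to 4.76) lay above the WT arrays (4.38 to 4.67).

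Bmpr2, the type II receptor, had 3 probe sets with unlike values. Its brightest probe set, 1434310_at, was at 13.07, 13.06 and 13.03 in KO and 13.07, 13.04, 13.06 and 13.06 in WT. The difference was -0.0042 with an interval of -0.11 to 0.10, and its sign turned with the normalization. Probe set 1419616_at was at 6.89, 7.20 and 7.20 in KO and 7.36, 7.62, 7.42 and 7.48 in WT, and fell by 0.37 (interval -0.59 to -0.15, limma adjusted p = 0.0452) without overlap. It lost its call whichever array was left out (adjusted p 0.0549 to 0.106) and in 7 of 12 alternatives. Probe set 1441652_at was at 7.62, 8.06 and 7.87 in KO and 7.64, 7.58, 7.46 and 7.50 in WT. Here KO replicates 2 and 3 were high and KO replicate 1 lay beside WT replicate 1, and the difference of 0.31 (interval 0.073 to 0.54) did not pass (adjusted p = 0.0934). Without KO replicate 1 it was 0.42 and passed (adjusted p = 0.0296). Under quantile normalization 1441652_at also passed, as higher in KO (0.36, limma adjusted p = 0.0464), while 1419616_at did not pass (-0.34, 0.0697).

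Within arrays, 1441652_at minus 1419616_at averaged 0.75 ± 0.10 for KO (SD, n = 3) against 0.075 ± 0.14 for WT (SD, n = 4), and the groups did not overlap. The difference 1434310_at minus 1419616_at was higher in KO by 0.37, and 1434310_at minus 1441652_at was lower by -0.31. These differences too were chosen after the values were seen and carry no test, and each is fixed by the other two. The brightest probe set, 1434310_at, had SDs of 0.021 over KO arrays and 0.013 over WT arrays at levels of 13.03 to 13.07, and how its signal responds at that level was not tested. Which part of the transcript each probe set reads was not analysed here. The 3′ to 5′ differences of the controls moved with the groups on the same arrays, and their part in these differences was not tested beyond the covariates above.

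**Figure D4:**
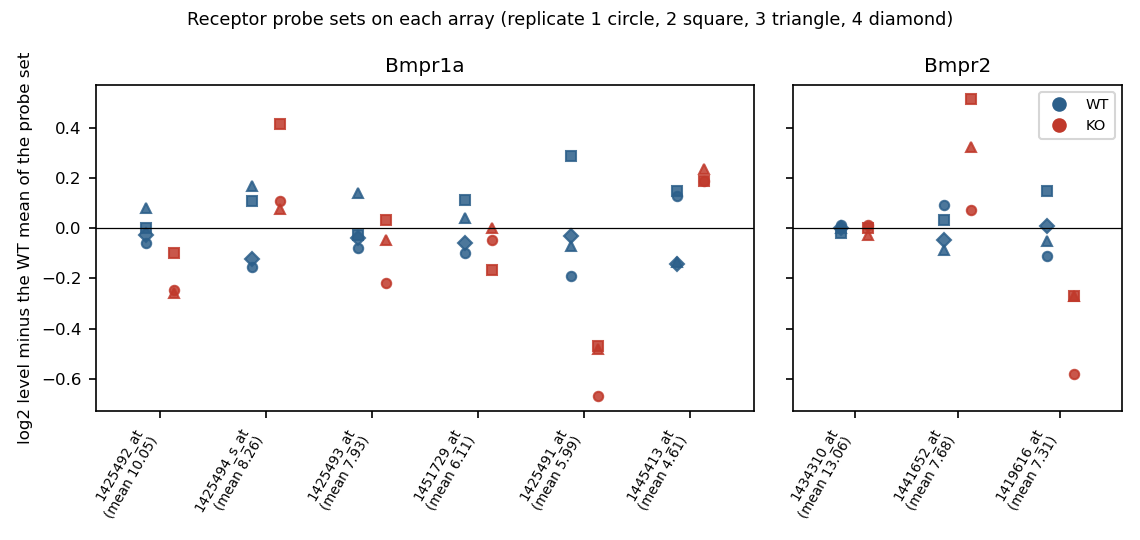
Log2 level of each Bmpr1a and Bmpr2 probe set on each array, relative to that probe set's WT mean (WT blue, KO red), ordered by mean level, which stands under each name. KO arrays lie apart below WT at Bmpr1a 1425491_at and 1425492_at and at Bmpr2 1419616_at, mostly above it at Bmpr2 1441652_at, and on it at Bmpr2 1434310_at.

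Other genes of the pathway came from a list of 50, of which 46 were on the array under 1 gene name. By the brightest probe set 3 of the 46 passed, 0 higher and 3 lower, against 10.5% of all genes, and their median log2 difference was 0.019 against 0.038. By role these were 0 of 7 ligands, 1 of 9 receptors and coreceptors, 0 of 5 Smads, 2 of 19 extracellular and membrane modulators and ubiquitin ligases, and 0 of 6 target genes. Twsg1, a secreted protein that binds BMPs together with chordin, fell 1.55-fold, from 9.25 ± 0.14 to 8.61 ± 0.20 (limma adjusted p = 0.0124), and kept its call whichever array was left out. Its 3 dimmer probe sets differed by -0.027 to 0.080, and the mean over its 4 probe sets, at -0.14, did not pass (adjusted p = 0.0934). Rgmb, a coreceptor of the repulsive guidance family, fell by 0.29 on the log2 scale (adjusted p = 0.0317), a call lost without any one of 5 arrays (up to 0.0864). Of its 5 other probe sets 1 fell (1433587_at), and 4 lay above 0, with 1442811_at at 0.37 (adjusted p = 0.0982); the mean over all of them, at -0.059, did not pass (0.420). Fstl1, a secreted glycoprotein that binds BMP4, fell by 0.28 (adjusted p = 0.0468), a call lost whichever array was left out (up to 0.115). The list count was 1 without KO replicate 3 or WT replicate 1, 3 or 4, where 4.38% to 5.11% of all probe sets passed. It was 6 when dim probe sets were set aside, of which 5 were lower and 1, Id4, was higher. With dim probe sets set aside, 17.5% of all those kept passed, and 15.6% of genes taken by 1 probe set each.

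Among the Smads that carry the signal, Smad5 differed by -0.37 (adjusted p = 0.0572), Smad1 by 0.23 (0.103) and Smad9 by 0.15 (0.172), and the shared partner Smad4 by -0.073 (0.433). Smad7, the inhibitory Smad of TGF-beta and BMP receptors, differed by 0.12 (0.258). Acvrl1, the endothelial type I receptor, differed by -0.41 (limma adjusted p = 0.0821), its relative Acvr1 by -0.15 (0.275) and the coreceptor Eng, endoglin, by 0.11 (0.396). Acvrl1 passed as lower with the mean over its probe sets (-0.56, limma adjusted p = 0.0424) and without WT replicate 2 (-0.52, 0.0275). Smad5 passed as lower in 3 of 14 alternatives and without KO replicate 1 (-0.46, 0.0409). Of the other target genes Id4 differed by 0.39 (0.0569), opposite in sign to Id1. It passed as higher in KO in 4 of 14 alternatives, among them quantile normalization (0.46, limma adjusted p = 0.0326), and without KO replicate 1 (0.51, 0.0220). Hey1, a Notch and BMP target, differed by 0.11 (0.563). Bmp7 (0.20), the decoy receptor Bambi (-0.099) and the antagonists Grem1 (0.098) and Nog (0.023) did not pass. The signs of Eng, Smad1, Smad4, Smad5, Smad7, Acvr1, Bambi, Grem1, Nog and Id4 each turned in at least 1 alternative or, for Bambi, with 1 array left out.

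Dimmer probe sets passed in 5 genes, and in all of these but Rgmb the brightest did not. Over all 94 probe sets of the 46 genes 8 passed, all lower, against 9.89% of all probe sets. Smad1 at 1416081_at was 5.61, 5.49 and 5.21 in KO and 6.69, 6.49, 5.99 and 6.16 in WT, a fall of 1.86-fold (limma adjusted p = 0.0174), where its brightest probe set differed by 0.23. Eng at 1417271_a_at fell by 0.59 on the log2 scale (adjusted p = 0.0319), Acvrl1 at 1435825_at 1.62-fold (0.0486), Smad5 at 1421047_at 1.44-fold (0.0401) and Rgmb at 1433587_at 1.54-fold (0.0049). The Rgmb call held whichever array was left out. That of Smad1 was lost without KO replicate 3 (0.0629), those of Eng without any of the WT arrays (up to 0.0832), and those of Acvrl1 and Smad5 without any array but KO replicate 1 (up to 0.147 and 0.112). With a control covariate none of the 5 passed, and with beta-actin 3′ minus 5′ or Gapdh 3′ minus middle the difference of Eng 1417271_a_at was -0.081 or -0.065, where that of Smad5 1421047_at was -0.50 or -0.18. In Eng and Smad1 the dimmer probe set was opposite in sign to the brightest, and in Rgmb, Acvrl1 and Smad5 it had the same sign.

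**Figure D5:**
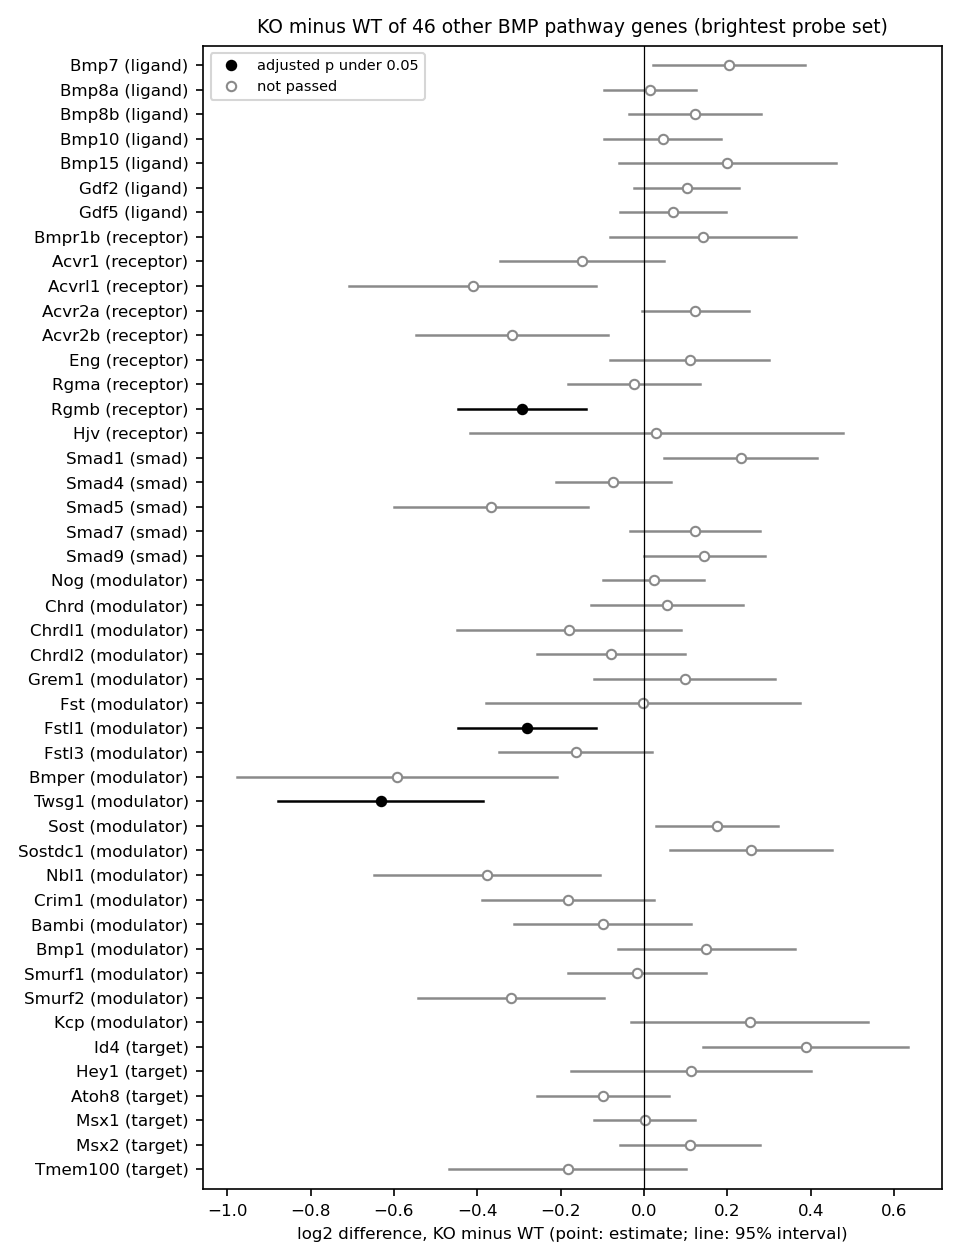
Log2 difference between KO and WT for the 46 other BMP pathway genes at the brightest probe set, with 95% intervals and the role of each gene in brackets; filled black points passed at an adjusted p under 0.05. Only Rgmb, Fstl1 and Twsg1 passed in this set, all below 0, and the intervals of most genes include 0.

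Cell type markers moved on the same arrays. Of 12 endothelial markers 5 fell, against 10.5% of all genes: Pecam1, Tie1, Emcn, Nos3 and Flt1, with log2 differences from -1.22 to -0.47. The summed level of the list, on a log2 scale, was 14.11 to 14.28 in KO and 14.37 to 14.55 in WT, without overlap. Vwf and Cldn5, its brightest members, were at 11.84 and 11.63 on average and did not pass. Without WT replicate 3 or WT replicate 4 the endothelial count was 2, without KO replicate 3 or WT replicate 1 it was 3, and without WT replicate 2 it was 7. With each control covariate it was 0, and with the Xist covariate or the replicate block it was 2. Endothelium is a known site of Id1, Smad6, Bmpr2, Acvrl1 and Eng expression, and the part of this list in their differences was not tested.

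Of the other lists, 3 of 7 smooth muscle markers fell (brightest Acta2 and Tagln), with summed levels of 13.06 to 13.21 in KO and 12.98 to 13.25 in WT. Of 8 fibroblast markers 3 fell (brightest Inmt and Col1a2), with 14.89 to 15.09 against 15.13 to 15.25. In mesothelium 3 of 4 fell (brightest Upk3b and Msln), with 7.73 to 8.53 against 8.72 to 9.81. With 1 array left out the counts were 1 to 2 in smooth muscle, 1 to 2 in fibroblast and 0 to 3 in mesothelium. With each control covariate the count was 0 in each of these lists. Of the alveolar lists, 1 of 6 type 1 markers fell (brightest Ager and Hopx), with 15.10 to 15.22 against 15.19 to 15.28, and 0 of 5 type 2 markers (brightest Sftpc and Sftpa1), with 15.19 to 15.25 against 15.33 to 15.52. No marker passed among 4 each of natural killer cells (Gzma, Eomes), heart muscle (Myh6, Actc1) and thymus (Dntt, Rag2), nor among 2 of fat (Car3, Adipoq). At unadjusted p under 0.05, limma gave 3 type 2, 1 thymus and 0 natural killer, heart and fat markers. Over all genes, by the brightest probe set, it gave 5712 of 18193. Heart muscle markers were clearly present, at 13.30 to 13.78 in KO and 13.00 to 13.92 in WT, and the thymus marker Rag1 was at 3.62.

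Bmp2 and Id1 lie on the chromosome of Gata5, 1024 and 714 annotated genes away, and Bmp7 lies 176 genes away. Genes whose levels ran closest to Id1 over the 7 arrays were found by the mean absolute difference of log2 levels, each taken relative to its own WT mean, among 13284 other genes that passed the filter on low values. They were Irgm2, an immunity-related GTPase, at 0.061, Ubn1 at 0.065 and Chtop at 0.068. Irgm2 was at 8.88, 8.72 and 8.55 in KO and 9.46, 8.95, 9.11 and 9.53 in WT, so that KO replicate 3 was the lowest array and WT replicate 4 the highest, as for Id1. For the brightest Bmpr2 probe set they were Tmem186 at 0.0029, Serbp1 at 0.0071 and Tes3-ps at 0.0093, genes that hardly varied between arrays.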

How the data were processed

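The data are 7 arrays of left lung RNA, 3 KO and 4 WT, grouped and numbered by the labels, which call them biological replicates. The authors deposited 1 log2 level for each of 45101 probe sets and array. Per the submitters' processing notes the tools were RMA, MAS5 and Affymetrix Expression Console, with no version; which of them made the table is unstated, and base 2 was taken from the range of the values. Array medians lie between 6.10 and 6.15. The 64 control probe sets were left out of the fit. Of 45037 others, 34945 had 1 gene, 932 several and 9160 none. Names of 34741 were updated by gene identifier from a RefSeq table (GRCm38.p6).

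KO and WT were compared over all 45037 probe sets with lmFit and eBayes (limma 3.58.1, R 4.3.3), fitting genotype alone, with Benjamini-Hochberg adjustment; adjusted p under 0.05 passed. For counts of genes the probe set with the highest mean stood for the gene. The control differences per array were compared by exact permutation. On simulated arrays of 45037 probe sets, planted changes were called for 29 of 72 where the log2 size was 0.5, for 61 of 69 where it was 1 and for 56 of 59 where it was 1.5. A further 9 calls were false. Only these few probe sets were changed, the noise was independent between probe sets, and no 3′ to 5′ shift between groups was simulated. The real arrays gave 4456 calls and so another p cutoff, and the simulated rates are not detection rates for them. The number of arrays limits the precision.

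Named genes were the 10 members with every probe set, pathway genes that passed and 14 fixed ones, the 3 genes closest to Id1 and to Bmpr2, the 2 brightest of each marker list, and Gata5; further probe sets of pathway genes were named after their values were seen. The members and lists were chosen with earlier results of these data known. Alternatives were array weights, covariates, another normalization, a filter on low values, other ways to reduce probe sets to genes, another variance model, the replicate block and leaving out each array. Figures used matplotlib 3.10.9 under Python 3.11.15.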

Additional observations from a re-analysis of the deposited data

Results flagged for a closer look

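Among the 4 WT arrays, 1 array stood far from the other 3 in 4 of 47 probe sets checked by Dixon's test; chance alone flags about 1 in 20. WT replicate 4 had Xist at 12.72, against 6.31 to 6.44 on the other WT arrays, and Eif2s3y at 3.71, against 9.30 to 9.38. WT replicate 1 had Acvr1 (1448460_at) at 9.37, against 9.54 to 9.57, and Smad5 (1421047_at) at 6.56, against 6.09 to 6.16.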

How the results depend on the processing

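Id1, Bmpr1a 1425491_at, Bmpr2 1419616_at, Smad6 and Bmp2 kept their direction in every alternative and with each array left out. The filter on low values, the choice of 1 probe set per gene and the variance model could not turn a sign. Nor could the average over a gene's probe sets where the gene had only 1. With beta-actin 3′ minus 5′, beta-actin 3′ minus middle, Gapdh 3′ minus middle or the hybridisation spikes as covariate, 0 member probe sets, 0 member genes and 0 pathway genes passed, and 0, 1, 13 and 0 of all probe sets (limma; 7989, 5099, 7714 and 7792 at unadjusted p under 0.05, with 4, 7, 6 and 3 members among them). With the Xist level as covariate the counts were 0 member probe sets, 0 member genes, 1 pathway gene and 2078 probe sets (10946 at unadjusted p under 0.05, 7 of them members). With 1 probe set per gene past the level filter 2069 genes passed and with the average over a gene's probe sets 1748; in these the count of member probe sets was not run, since the probe sets are not kept apart. The level filter and the choice of 1 probe set per gene gave 6 pathway genes each, against 17.5% and 15.6% of all tested. The gene mean gave 1, Acvrl1, against 9.61% of all genes.

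The replicate numbers did not pair the samples: deviations of same-numbered arrays from their group means correlated at 0.088, -0.098 and 0.035. With the replicate number as a block 1 member probe set, 0 member genes, 1 pathway gene and 1322 of all probe sets passed, and Id1 stood at -0.53 (adjusted p = 0.0669). Only WT had a replicate 4, so the block also took that array out of the comparison.

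With each array left out, counts ran from 0 to 3 member probe sets, 0 to 2 member genes, 1 to 4 pathway genes and 1974 to 4251 of all probe sets.

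Signs turned as follows, and the cause was not tested. With beta-actin 3′ minus middle as covariate, Bmp4 was at 0.079, Bmp5 1455851_at at 0.0082 and 1421282_at at -0.20, Bmpr2 1434310_at at 0.027, Id2 1422537_a_at at 0.46, Id3 at 0.22, Smad1 at -0.063, Id4 at -0.018 and Nog at -0.080. With beta-actin 3′ minus 5′, Bmp6 was at -0.21, Bmpr1a 1425494_s_at at -0.068 and 1451729_at at 0.11, Id2 1435176_a_at at -0.042, Eng at -0.11, Smad5 at 0.052, Smad7 at -0.019, Grem1 at -0.017 and Gata5 1450125_at at 0.00098. With Gapdh 3′ minus middle, Bmp6 was at -0.19, Bmpr1a 1425494_s_at at -0.15 and 1451729_at at 0.020, Id2 1435176_a_at at -0.11, Eng at -0.090, Grem1 at -0.21 and Gata5 1450125_at at 0.0070. With the spikes, Bmp5 1421282_at was at -0.10, Bmpr1a 1451729_at at 0.048, Bmpr2 1441652_at at -0.00031, Eng at -0.013 and Smad7 at -0.018. Under quantile normalization, Bmp5 1455851_at was at 0.077, Bmpr2 1434310_at at 0.038, Id2 1453596_at at -0.020, Smad4 at 0.010 and Nog at -0.048. Under cyclic loess, Bmp5 1455851_at was at 0.053 and 1421282_at at -0.019, Bmpr2 1434310_at at 0.060, Id2 1453596_at at -0.017 and Nog at -0.041. Under median centring, Bmp5 1421282_at was at -0.0083 and Nog at -0.0058. With that average, Id2 was at -0.077, Acvr1 at 0.00028, Eng at -0.24 and Smad1 at -0.21. With 1 array left out, Bmp5 1455851_at ranged from -0.053 to 0.030 and 1421282_at from -0.043 to 0.068, Bmpr2 1434310_at from -0.013 to 0.0075, Id2 1435176_a_at from -0.010 to 0.18 and 1453596_at from -0.083 to 0.18, Bambi from -0.18 to 0.013 and Nog from -0.015 to 0.050.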
